A study of Homo sapiens with 9 samples.

Results

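The 10 genes described here encode the cytosolic heat shock proteins HSPA8, HSPA1A, HSPA1B and HSPA6 of the HSP70 family, HSPA4 and HSPH1 of the HSP110 branch, both cytosolic HSP90 genes HSP90AA1 and HSP90AB1, the J-domain protein gene DNAJB1 and the small heat shock protein gene HSPB1. They were chosen by symbol from the deposited count table, which lists 17637 genes, and all 10 were present and passed the filter on low counts. Messenger RNA was measured by poly(A) RNA sequencing in KOPTK1, an established line of human T-cell acute lymphoblastic leukaemia that the labels give as wild type. The 3 groups of 3 libraries were shControl, transduced with a control hairpin that the column names give as one against GFP; shDHX15, with a hairpin against the RNA helicase DHX15; and shDHX15_MYC, with that hairpin and the coding region of MYC. All groups carried a lentiviral hairpin, and all shDHX15 and shDHX15_MYC columns bear the same hairpin number, so that effects of this hairpin on other transcripts and loss of DHX15 cannot be told apart. No group had MYC without this hairpin, and the group names show no control construct for MYC. Effects of MYC and of the construct that carried it can therefore not be told apart. The study asked whether MYC acts downstream of DHX15.

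HSP70 proteins bind exposed stretches of unfolded polypeptides and release them in a cycle driven by ATP. J-domain proteins such as DNAJB1 bring substrates and trigger ATP hydrolysis, and HSP110 proteins such as HSPH1 and HSPA4 exchange ADP for ATP. HSP90 receives partly folded clients, among them kinases and steroid receptors, from HSP70, and small heat shock proteins such as HSPB1 hold unfolded proteins without using ATP. HSPA8 and HSP90AB1 are the constitutive forms, whereas HSPA1A, HSPA1B, HSPA6 and DNAJB1 are induced by heat and proteotoxic stress through the transcription factor HSF1, which binds heat shock elements, arrays of inverted GAA units.

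The promoters of the members are shown first. RefSeq windows from 250 bases before to 50 after a transcript start (GRCh38.p14) were found for all 10 genes and were searched on both strands for the paired units GAANNTTC and TTCNNGAA and for the triple unit in which GAANNTTC and TTCNNGAA share their TTC, so that a match to it holds a match to both pairs. The triple unit was found for HSPA8, HSPA6, HSP90AA1 and HSP90AB1, which is 4 of 10 members, against 0.608% of 27305 genes with a window. These sites are shown as the sense strand, 5′ to 3′, with the matched units in capitals, to compare the constitutive HSPA8 with the inducible HSPA6 and both HSP90 genes.
HSPA8, distal, chr11:123062346-123062374, minus strand: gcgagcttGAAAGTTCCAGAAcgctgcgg
HSPA8, proximal, chr11:123062171-123062199, minus strand: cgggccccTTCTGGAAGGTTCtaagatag
HSPA6, chr1:161524458-161524486, plus strand: cggaaaggTTCGCGAAAGTTCgcggcggc
HSP90AA1, chr14:102087112-102087140, minus strand: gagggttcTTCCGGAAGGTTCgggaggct
HSP90AB1, distal, chr6:44247770-44247798, plus strand: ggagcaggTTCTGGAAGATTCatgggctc
HSP90AB1, proximal, chr6:44247823-44247851, plus strand: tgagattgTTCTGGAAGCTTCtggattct
HSP90AA1 and HSP90AB1 have windows at several starts, and the triple unit was found only in window 2 of HSP90AA1 and window 3 of HSP90AB1. All 250 bases before the HSPA8 start lay in annotated exons of HSPA8. Whether any of these sites has a part in the changes below was not tested.

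The pair GAANNTTC was found for 8 of 10 members, against 8.21% of all genes, and TTCNNGAA for 4 of 10, against 9.46%. HSPA4 and HSPH1 held neither in these windows. The E-box CACGTG, the canonical site of MYC with its partner MAX, was found for 0 of 10 members and 8.77% of all genes. Such matches are letters in a window of 300 bases and do not show binding.

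HSPA1A and HSPA1B are neighbours on chromosome 6 with near-identical sequence, also upstream, and their stretches before the annotated first exon of HSPA1A are shown so that this can be seen. Over 171 bases with no gap, 164 were the same (95.9%), and each held 1 pair of units, in capitals.
HSPA1A, chr6:31815293-31815463, plus strand: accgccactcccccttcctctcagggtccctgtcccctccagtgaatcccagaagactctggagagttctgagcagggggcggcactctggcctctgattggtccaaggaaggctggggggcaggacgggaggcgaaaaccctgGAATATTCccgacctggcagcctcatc
HSPA1B, chr6:31827489-31827659, plus strand: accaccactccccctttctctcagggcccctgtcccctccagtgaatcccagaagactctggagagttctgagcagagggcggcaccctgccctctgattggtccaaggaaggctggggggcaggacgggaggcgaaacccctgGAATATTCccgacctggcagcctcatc
In the annotated transcripts, 65.9% of 100-base windows of HSPA1A and 71.4% of those of HSPA1B also occurred in another gene, almost always the other of the pair. For HSPA6 the share was 26.1%, with the pseudogene HSPA7. For the remaining 7 members it was 0 to 3.7%. Counts for HSPA1A and HSPA1B may therefore be split between them in a way that cannot be checked here, and their sum is given beside their own values.

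Libraries held 42134302 to 59688062 counts. In CPM, the library-size-scaled count after correction by TMM factors, DHX15 stood at 280.3 ± 3.43 with the control hairpin, 166.5 ± 13.8 with its own and 195 ± 2.55 with MYC added (SD, n = 3), and MYC at 109 ± 0.603, 86.9 ± 3.78 and 7098 ± 153. MYC was thus far above its shControl level in shDHX15_MYC. Of 11 measured T-lineage markers, all had a mean over 1 CPM and their summed level was 3150 to 3260 CPM in shControl, 2570 to 2690 in shDHX15 and 1680 to 1720 in shDHX15_MYC. Of the markers of other cell types, those of B cells summed to 51.1 to 53.1, 46.5 to 48.9 and 105 to 109 CPM, of NK cells to 30.4 to 34.8, 33.9 to 37.8 and 97.9 to 104, of adherent and packaging cells to 21.3 to 22.4, 14.9 to 16.2 and 41 to 41.9, of myeloid cells to 0.708 to 1.31, 0.623 to 0.869 and 7.25 to 8.89, and of erythroid cells to under 1 in every library. At most 2 of the 5 B-cell markers (CD79A, CD79B), 1 of 4 NK (NKG7), 2 of 6 myeloid (CD14, ITGAM), 5 of 8 adherent (COL1A1, EPCAM, KRT8, KRT18, FN1) and 0 of 4 erythroid markers had a mean over 1 CPM, and none was at 0 in all libraries. The mitochondrially encoded share of counts was 3.67% to 3.99% without and 6.59% to 6.66% with added MYC. The part of these shifts in the results below was not tested. The first shDHX15 library (replicate 1) lay far from its replicates: per degree of freedom, the chi-square of counts was 18 and 17.1 against replicates 2 and 3, whose own value was 4.45, and 2.73 to 3.23 within the other groups. In bulk RNA, fewer cells expressing a gene and less of its RNA per cell cannot be told apart.

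In the knockdown the constitutive forms HSPA8 and HSP90AB1 and the small heat shock protein HSPB1 fell, and the inducible HSP70 genes, HSP90AA1, HSPH1 and DNAJB1 rose. The quasi-likelihood test of edgeR, with p-values adjusted over 15309 genes and called below 0.05, called 6 of the 10 members higher and 3 lower in shDHX15 than in shControl, where 22% and 23% of all genes tested were called. The members' median log2 fold change was 0.20, beside 0.00 over all genes tested. With added MYC, 9 members were higher and 1 lower than in shDHX15, where 42.1% and 42.6% of all genes were called, and the median was 0.88 beside 0.01. Against shControl, shDHX15_MYC had 8 members higher and 2 lower, where 42% and 42.5% of genes were called, with a median of 1.12 beside 0.02. These comparisons share libraries with each other, and a gene's changes in them are given side by side below. The groups did not overlap for 9 of the 10 members in the knockdown and for 10 in each comparison with MYC, beside 51.1% of all genes, 85% over shDHX15 and 87.2% over shControl. The counts of members were the same without replicate 1 of shDHX15. Scaling by total counts in place of TMM factors moved the median of all genes to 0.06, 0.20 and 0.28, and the share of called genes that were higher from 48.8% to 64.1% in the knockdown, from 49.7% to 58.9% with MYC over shDHX15 and from 49.7% to 62.4% with MYC over shControl. No member changed direction under it.

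**Figure D1:**
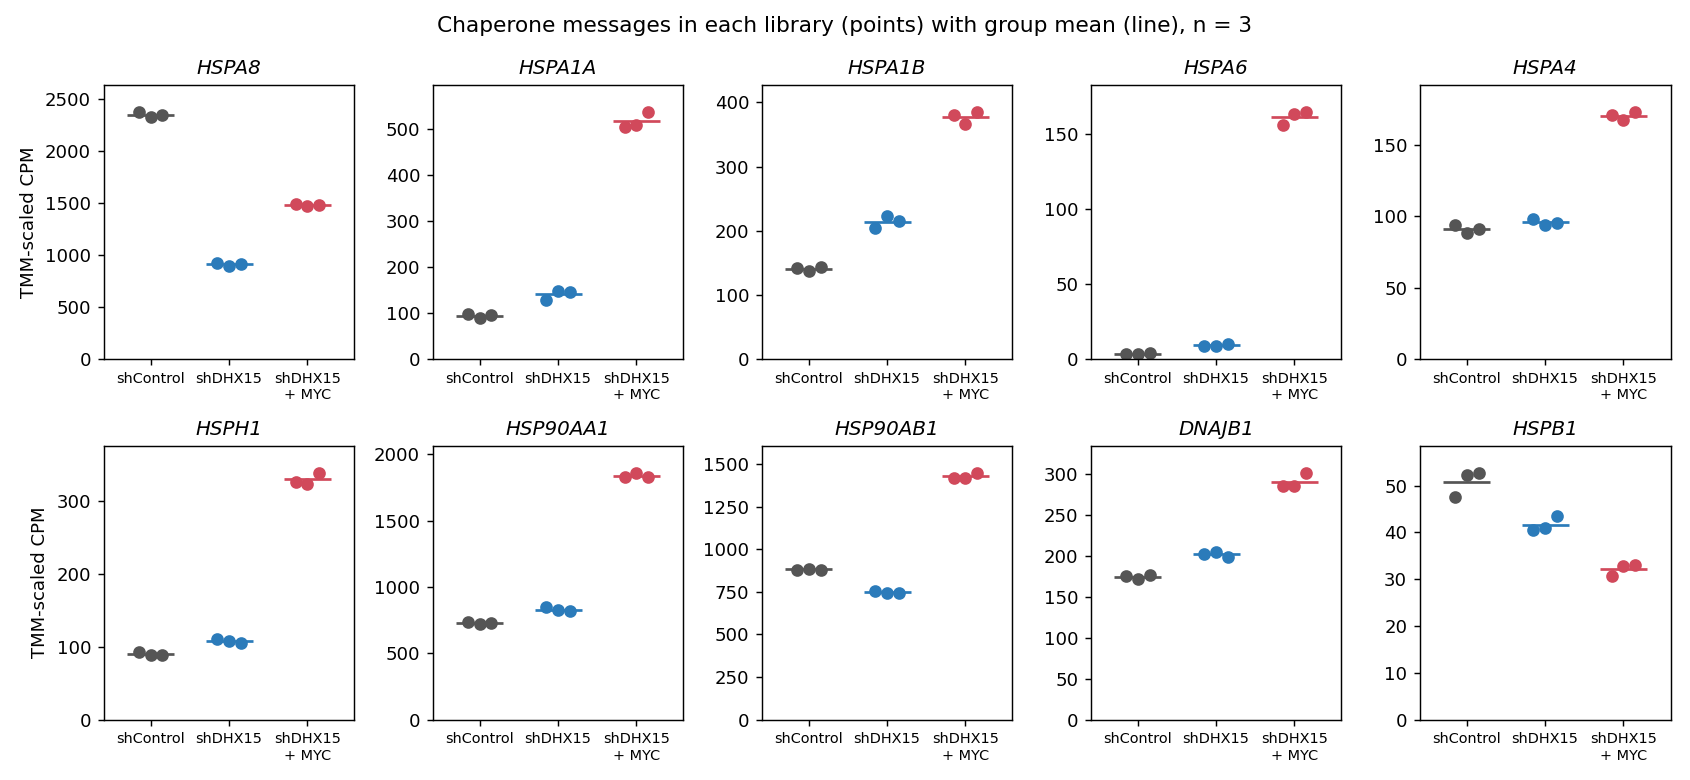
Level of each of the 10 chaperone genes in TMM-scaled CPM (vertical axis, from 0) in the 3 libraries of each group (points), with the group mean (line). HSPA8 is highest in shControl and lowest in shDHX15, HSPB1 falls at each step, and the other 8 genes are highest in shDHX15_MYC, with HSPA6 between 3.16 and 3.86 CPM in shControl and between 156 and 165 in shDHX15_MYC.

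**Figure D2:**
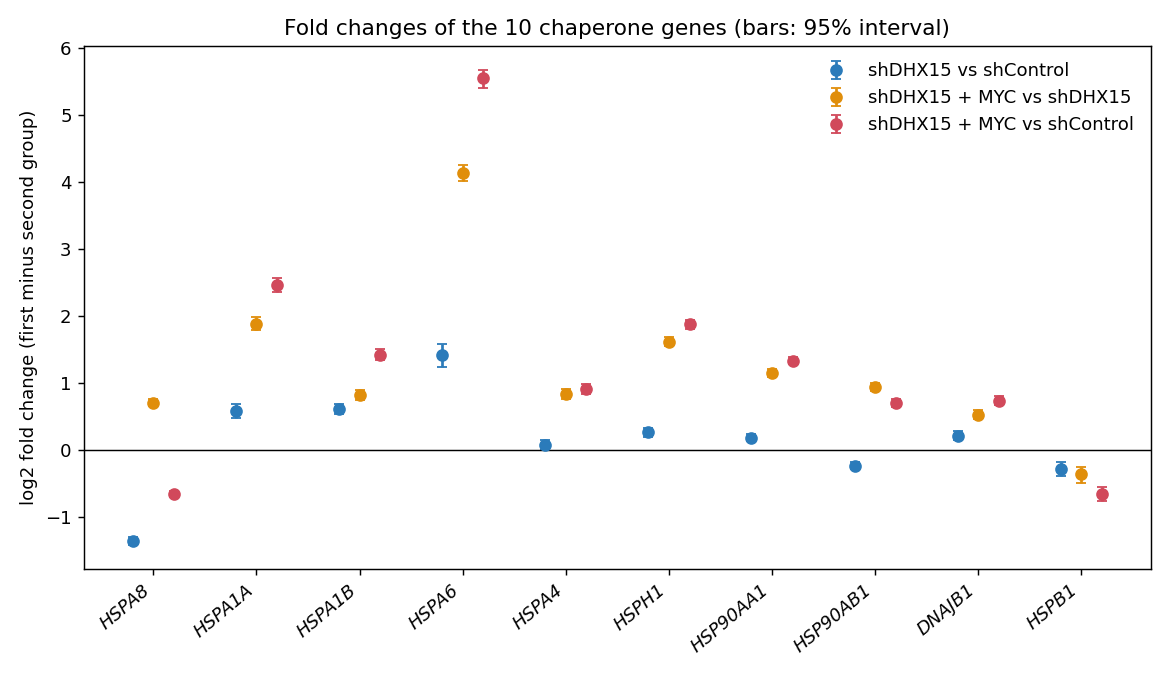
Log2 fold change of each member in the 3 comparisons, with 95% intervals from the edgeR model (n = 3 libraries a group). HSPA8 is the one member below 0 by more than 1 in the knockdown (-1.37), and HSPA6 has the highest values in all comparisons, up to 5.54.

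HSPA8, the constitutive HSP70 that also uncoats clathrin vesicles, lost most of its message in the knockdown. It stood at 2369, 2322 and 2342 CPM in shControl, at 923, 898 and 908 in shDHX15 and at 1488, 1473 and 1479 in shDHX15_MYC. The groups did not overlap, and the spread within each was small. The fall in shDHX15 was 2.58-fold (-1.37 on the log2 scale, SE 0.0243, adjusted p = 3.51e-16), while 2.16% of all genes tested were called with a fall of at least 2-fold. With added MYC HSPA8 rose 1.63-fold over shDHX15 (0.70, SE 0.024, adjusted p = 1.62e-14) but remained 1.58-fold below shControl (-0.66, SE 0.0239, adjusted p = 3.47e-14). HSPA8 spans bases 123057489 to 123063230 of chromosome 11 on the minus strand (GRCh38) and hosts the snoRNA genes SNORD14C, SNORD14D and SNORD14E in its body.

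HSPA6, a strictly inducible HSP70 that is nearly silent in most unstressed cells, had the largest changes of the 10. Its level was 3.38, 3.16 and 3.86 CPM in shControl, 8.86, 9.03 and 9.86 in shDHX15 and 156, 163 and 165 in shDHX15_MYC. These rest on 134 to 181 counts in shControl, 426 to 522 in shDHX15 and 7409 to 7895 in shDHX15_MYC. All shDHX15 libraries were above all shControl libraries, and the shDHX15_MYC libraries were far above both. The rise was 2.66-fold in the knockdown (1.41, SE 0.0784, edgeR adjusted p = 5.77e-10), 17.5-fold with MYC over shDHX15 (4.13, SE 0.0561, adjusted p = 1.45e-19) and 46.4-fold over shControl (5.54, SE 0.065, adjusted p = 3.04e-20). HSPA6 lies on chromosome 1 at 161524540 to 161526910 (plus strand), within the longer transcript gene AL590385.2 on the same strand.

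HSPA1A, the major stress-induced HSP70, was at 97.6, 90.15 and 95.2 CPM in shControl, 127, 149 and 145 in shDHX15 and 505, 508 and 536 in shDHX15_MYC. HSPA1B, which encodes an almost identical protein, was at 142, 137 and 144 CPM, then 204, 223 and 215.5, then 380.5, 367 and 384.5. For both genes the 3 groups were fully separated. In the knockdown they rose alike, by 1.49-fold (0.57, SE 0.0495, edgeR adjusted p = 9.66e-08) and 1.52-fold (0.61, SE 0.0369, adjusted p = 1.51e-09). With MYC, HSPA1A rose 3.68-fold over shDHX15 (1.88, SE 0.049, adjusted p = 4.4e-16) and HSPA1B 1.76-fold (0.82, SE 0.0363, adjusted p = 5.75e-13). Against shControl they were 5.48-fold and 2.68-fold higher with MYC. Summed into 1 gene, the pair had log2 fold changes of 0.59 in the knockdown, 1.33 with MYC over shDHX15 and 1.93 with MYC over shControl.

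By the counts assigned to each gene, HSPA1A stood above HSPA1B with added MYC. How reads that match both genes were assigned is not known, so this split cannot be checked here. The part of HSPA1A in the pair's counts, a share chosen after seeing the data, was 40.1% ± 0.566 with the control hairpin. It was 39.5% ± 0.954 in shDHX15 and 57.8% ± 0.658 with MYC (SD, n = 3). All 3 shDHX15_MYC libraries, at 57% to 58.2%, lay above the other libraries, whose highest was 40.8%. The exact permutation test gave p = 0.1 for shDHX15_MYC against either group, which is the smallest p that 3 against 3 libraries allow (adjusted p = 0.106 over 18 such tests of shares), and p = 0.6 for shDHX15 against shControl. HSPA1B also overlaps AL671762.1 on the same strand, which holds part of the sequence of both genes.

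The HSP70 pool here means the members HSPA8, HSPA1A, HSPA1B and HSPA6, and other cytosolic HSP70 genes were not counted in it. Its makeup shifted from HSPA8 to the inducible genes in both steps. To compare genes, levels were divided by the length of the annotated exons. HSPA8 made up 83.5% ± 0.328 of the pool's counts per kilobase in shControl, 56.4% ± 1.80 in shDHX15 and 41.8% ± 0.615 in shDHX15_MYC. HSPA1A and HSPA1B together took 16.2% ± 0.308, 42.5% ± 1.80 and 48.9% ± 0.600, and HSPA6 took 0.253% ± 0.0248, 1.17% ± 0.0602 and 9.32% ± 0.234. With the length of the longest transcript HSPA1A and HSPA1B took 8.96%, 27.5% and 34.8% and HSPA6 0.140%, 0.758% and 6.63%, with the groups in the same order. In none of the shares by exon length did any 2 groups overlap, with an exact permutation p of 0.1 for each pair of groups.

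The summed level of the 4 genes was 578.7 ± 7.50 CPM per kilobase in shControl, 333 ± 5.99 in shDHX15 and 731 ± 10.5 in shDHX15_MYC. The inducible 3 genes went from 95.3 ± 2.97 to 145 ± 8.57 and 425.7 ± 10.5 CPM per kilobase. In shDHX15 their gain was thus smaller than the loss of HSPA8, from 483.5 ± 4.86 to 188 ± 2.62 CPM per kilobase, and the pool was smaller than in shControl. In shDHX15_MYC HSPA8, at 305 ± 1.56, was lower than in shControl, and whether the pool was larger depended on the length used and on the scaling. With exon lengths its log2 ratio to shControl was 0.34, but it was -0.03 with the length of the longest transcript or with counts not divided by length, and the libraries then overlapped. Scaled by total counts, it was 0.60 with exon lengths and 0.24 with counts not divided by length, without overlap.

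**Figure D3:**
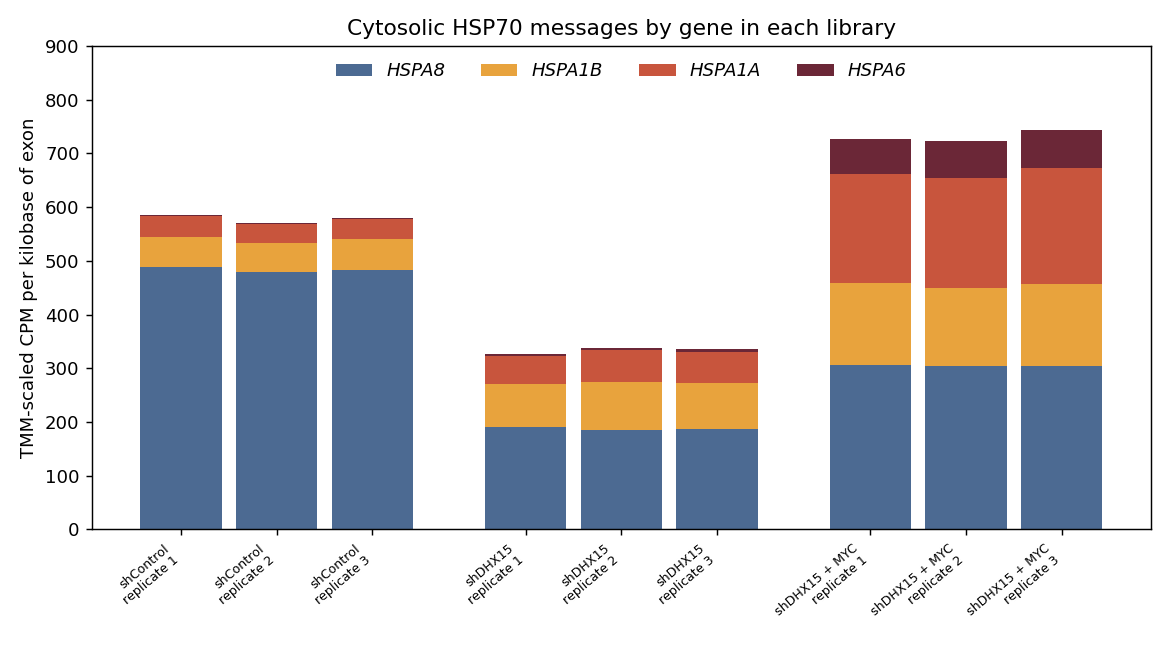
Stacked levels of HSPA8, HSPA1B, HSPA1A and HSPA6 in TMM-scaled CPM per kilobase of exon (vertical axis, from 0), 1 bar for each library. The HSPA8 part falls from 483.5 in shControl to 188 in shDHX15 and is 305 in shDHX15_MYC, where HSPA1A, HSPA1B and HSPA6 together stand at 425.7.

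Of the HSP110 exchange factors, which recharge HSP70 with ATP, HSPH1 is heat-inducible and HSPA4 more constitutive. HSPH1 was at 92.8, 88.7 and 88.4 CPM in shControl, 110.1, 107.5 and 106 in shDHX15 and 327, 324 and 338 in shDHX15_MYC, with no overlap. It rose 1.20-fold in the knockdown (0.26, SE 0.0337, edgeR adjusted p = 8.17e-06) and 3.06-fold with MYC over shDHX15 (1.61, SE 0.0332, adjusted p = 2.19e-17). HSPA4 stood at 93.6, 88.1 and 91.2 CPM in shControl and 97.8, 93.5 and 95.3 in shDHX15. These ranges overlapped by a narrow margin, and HSPA4 was the one member not called in the knockdown (0.07, SE 0.0353, 95% interval 0.00 to 0.15, adjusted p = 0.117). With libraries scaled by total counts in place of TMM factors it was called higher (0.14, adjusted p = 0.00392). With MYC it reached 170.4, 167 and 172.5 CPM, 1.78-fold above shDHX15 (adjusted p = 2.51e-13).

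The HSP90 genes moved apart in the knockdown and together with MYC. HSP90AA1, the inducible form, was at 738, 724 and 727 CPM in shControl, 846, 825 and 815.5 in shDHX15 and 1829, 1857 and 1826 in shDHX15_MYC. HSP90AB1, the constitutive form, was at 880, 884 and 879 CPM, then 756, 743 and 740.3, then 1415, 1420.0 and 1446. HSP90AA1 rose in the knockdown 1.14-fold (0.18, SE 0.0253, edgeR adjusted p = 1.69e-05), and HSP90AB1 fell 1.18-fold (-0.24, SE 0.0247, adjusted p = 7.08e-07). Both changes were small beside those of HSPA8, but neither gene's groups overlapped. With MYC they rose 2.22-fold (1.15, SE 0.0255, adjusted p = 5.97e-17) and 1.91-fold (0.93, SE 0.0248, adjusted p = 5.51e-16) over shDHX15.

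HSP90AA1 accounted for 32% ± 0.255 of the cytosolic HSP90 counts per kilobase in shControl, 38.7% ± 0.182 in shDHX15 and 42.2% ± 0.432 in shDHX15_MYC, without overlap between groups (exact permutation p = 0.1 for each pair of groups). The sum of both genes was 435 ± 1.11 CPM per kilobase in shControl, 408 ± 5.80 in shDHX15 and 829 ± 5.06 in shDHX15_MYC. The HSP90 pool was larger in shDHX15_MYC than in either other group under each length and scaling tried. Its small difference between shDHX15 and shControl (log2 ratio -0.09) was -0.02, with overlapping libraries, when scaled by total counts, and 0.03 when such counts were not divided by length. The annotated HSP90AA1 overlaps WDR20 on the opposite strand, and whether the counting used strand is not given in the sources used here.

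**Figure D4:**
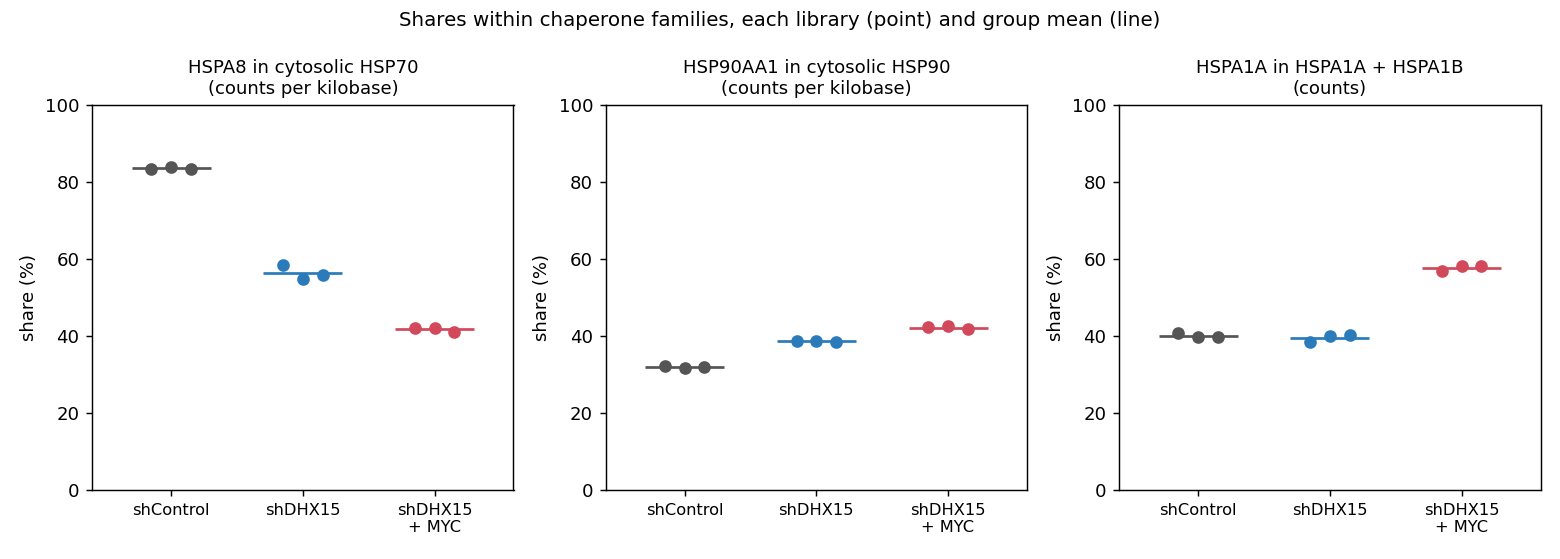
Share of HSPA8 in the cytosolic HSP70 members and of HSP90AA1 in cytosolic HSP90 (percent of counts per kilobase), and of HSPA1A in the counts of HSPA1A and HSPA1B (percent), for each library (points) with the group mean (line). The first falls from 83.5% to 56.4% and 41.8%, the second goes from 32% to 38.7% and 42.2%, and the third differs only in shDHX15_MYC, at 57.8%.

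DNAJB1, the J-domain partner of the inducible HSP70 proteins, was at 175, 172 and 177 CPM in shControl, 203, 204 and 199 in shDHX15 and 285, 286 and 301 in shDHX15_MYC. It rose 1.16-fold in the knockdown (0.21, SE 0.0316, edgeR adjusted p = 4.04e-05) and 1.44-fold with MYC over shDHX15 (0.52, SE 0.0313, adjusted p = 3.72e-11), the smallest rise with MYC among the 9 members that rose. DNAJB1 overlaps TECR on the opposite strand. HSPB1, which forms large oligomers and binds actin, was the one member that was lower in each successive group. Its values were 47.6, 52.4 and 52.7 CPM in shControl, 40.6, 40.9 and 43.55 in shDHX15 and 30.7, 32.85 and 33 in shDHX15_MYC. The falls were 1.22-fold in the knockdown (-0.29, SE 0.0526, adjusted p = 2.7e-04) and 1.30-fold with MYC (-0.37, SE 0.0537, adjusted p = 4.81e-06).

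The order of the members by level per kilobase changed between groups. In shControl HSPA8 (483.5 ± 4.86 CPM per kilobase) was first, followed by HSP90AB1 (296 ± 0.966), HSP90AA1 (139 ± 1.33), HSPA1B, DNAJB1, HSPA1A, HSPB1, HSPA4, HSPH1 and HSPA6 (1.46 ± 0.151), with no overlap between neighbours in this order. In shDHX15 HSP90AB1 (250.5 ± 2.86) came before HSPA8, and HSPA1A and DNAJB1, at 56.5 ± 4.62 and 55.05 ± 0.690, overlapped. In shDHX15_MYC the order was HSP90AB1 (479 ± 5.59), HSP90AA1 (350.1 ± 3.26), HSPA8 (305 ± 1.56), HSPA1A (208 ± 6.83), HSPA1B (150 ± 3.73), DNAJB1, HSPA6 (68.1 ± 1.91), HSPH1, HSPA4 and HSPB1 (19.7 ± 0.787), again with no overlap. HSPA6 thus moved from last to the seventh place. Several places rest on the exon lengths, those of HSPA8 and the HSP90 genes among them. With the length of the longest transcript HSPA8 was first in all 3 groups, at 951.8, 369 and 601 CPM per kilobase, before HSP90AB1 at 329.5, 279 and 534. DNAJB1 (77.2) then came before HSPA1B (55.8) in shControl. With counts not divided by length, HSP90AA1 (1837 CPM) came before HSPA8 (1480) in shDHX15_MYC, and HSPA6 had rank 9 there. Together the 10 genes took 0.426% ± 0.00331 of all counts with the control hairpin, 0.320% ± 0.00219 in shDHX15 and 0.737% ± 0.00294 with MYC, without overlap (exact permutation p = 0.1 for each pair of groups).

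The partners of these chaperones and the other HSP70 and HSP90 genes were described from a list of 105 genes, of which 99 were tested. In the knockdown 20 were higher and 30 lower, where 22% and 23% of all genes tested were called, with a median log2 fold change of 0.00, the same as over all genes. The balance turned with total-count scaling, to 34 higher and 25 lower. That of all 15309 genes tested turned the same way, from 3362 higher and 3524 lower to 4576 and 2568. With MYC over shDHX15, 63 were higher and 24 lower, where 42.1% and 42.6% of all genes were called. The median was 0.46, beside 0.01 over all genes. Against shControl 69 were higher and 24 lower, where 42% and 42.5% of all genes were called. That median was 0.41, beside 0.02. With total-count scaling these counts were 75 and 16, and 76 and 17, beside 7679 and 5348, and 8128 and 4893, of all genes tested.

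HSF1 itself, the activator of heat shock genes, did not pass the test in the knockdown, with 160, 160 and 148 CPM in shControl and 132, 153 and 167 in shDHX15 (-0.05, SE 0.0608, edgeR adjusted p = 0.523). With MYC it fell to 110.9, 117 and 111 CPM (-0.41 against shDHX15, SE 0.0614, adjusted p = 7.53e-06). HSF2, its relative, fell from 53.95 ± 3.88 CPM to 46 ± 2.66 in the knockdown and to 28.1 ± 1.07 with MYC (adjusted p = 0.0034 and 4.36e-09). HSF4 rose by 0.47 on the log2 scale and then fell by 2.36, and HSBP1, a small protein that binds HSF1, rose by 0.33 and fell by 0.37. The messages of HSF1 and HSF2 were thus lowest in shDHX15_MYC. The activity of these factors was not measured, and their part in the changes of the members was not tested.

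Of 12 other genes of the HSP70 and HSP90 families, cytosolic ones among them, HSPA5 of the endoplasmic reticulum had a level of 170 ± 2.03 CPM with the control hairpin and 170.2 ± 2.13 in the knockdown and rose to 498 ± 9.47 with MYC (1.55, edgeR adjusted p = 8.26e-18). The mitochondrial HSPA9 fell from 256 ± 0.615 to 222.5 ± 2.26 CPM in the knockdown and rose to 507 ± 4.28 with MYC. HSPA4L, a cytosolic HSP110 gene, rose in both steps, from 18.4 ± 0.938 to 24.5 ± 0.760 and 88.9 ± 1.63 CPM. HSP90B1, the HSP90 of the endoplasmic reticulum, also rose in both, by 0.33 and 0.63 on the log2 scale. Of these 12 genes, 3 were higher and 2 lower in the knockdown, where 22% and 23% of all genes tested were called. With MYC over shDHX15, 10 were higher and 1 lower, where 42.1% and 42.6% of all genes were called.

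Of 25 J-domain genes, 8 were higher and 6 lower in the knockdown and 14 higher and 6 lower with MYC. With total-count scaling these were 12 and 6, and 20 and 2, beside 4576 and 2568, and 7679 and 5348, of all 15309 genes tested. With TMM factors, 22% and 23% of all genes tested were called in the knockdown and 42.1% and 42.6% with MYC over shDHX15. DNAJA1, an HSP70 partner like DNAJB1, fell from 156 ± 1.56 to 132 ± 2.61 CPM in the knockdown, where DNAJB1 rose, and reached 325 ± 6.61 with MYC. DNAJC2, which acts with HSP70 at the ribosome, rose from 24.4 ± 0.864 to 29.2 ± 1.29 and 88.4 ± 2.09 CPM. DNAJB14 rose by 0.57 and DNAJB12 fell by 0.48 in the knockdown. Of 14 nucleotide exchange factors and HSP70 adaptors, 1 was higher and 3 lower in the knockdown, and 10 were higher and 3 lower with MYC. Without replicate 1 of shDHX15, or with total-count scaling, 4 were higher in the knockdown. Over all genes tested, 3814 were higher without that replicate and 4576 with total-count scaling. BAG3, a stress-induced exchange factor, was the one that rose in the knockdown over all libraries (0.35, edgeR adjusted p = 8.19e-04), from 39.3 ± 0.409 to 50 ± 7.10 CPM, and stood at 73.5 ± 1.64 with MYC. STIP1, which links HSP70 to HSP90, went from 205 ± 2.34 to 185 ± 3.95 and 320 ± 8.94 CPM, whereas the HSP70 adaptor ST13, with 23.9% of its windows shared with other loci, fell in both steps to 212 ± 1.02.

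Of 19 HSP90 co-chaperones, 5 were higher and 4 lower in the knockdown, where 22% and 23% of all genes tested were called. With MYC over shDHX15, 10 were higher and 7 lower, where 42.1% and 42.6% of all genes were called. With total-count scaling 9 were higher in the knockdown, beside 4576 of all 15309 genes tested. CHORDC1, a heat-inducible partner of HSP90, rose from 45.35 ± 1.84 to 62 ± 4.57 CPM in the knockdown and to 74.8 ± 1.31 with MYC, and CDC37L1 rose by 0.57 in the knockdown. PTGES3, the co-chaperone p23, fell in both steps, from 415 ± 6.76 to 366 ± 12.2 and 289 ± 3.93 CPM. NUDC rose by 1.10 and FKBP8 fell by 1.20 with MYC. The co-chaperones thus moved in both directions with MYC, as all genes did, where both HSP90 genes rose.

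Of 4 other small heat shock protein genes tested, 1 was higher and 1 lower in the knockdown, and 3 were higher and 1 lower with MYC. Over all genes tested, 22% and 23% were called in the knockdown and 42.1% and 42.6% with MYC over shDHX15. HSPB8 went from 0.807 ± 0.241 CPM in shControl to 0.356 ± 0.0386 in shDHX15 and 5.45 ± 0.195 in shDHX15_MYC. With MYC over shDHX15, HSPB9 rose by 1.38, from 0.634 ± 0.248 to 1.66 ± 0.212 CPM. HSPB6 rose by 1.75, from 0.181 ± 0.0839 to 0.604 ± 0.079 CPM. These rises, in the opposite direction to HSPB1, started from levels under 1 CPM. HSPB11 was the one that fell with MYC (-1.11). Of 20 chaperonin and other heat shock target genes, 0 were higher and 13 lower in the knockdown by edgeR, with 0 higher at an unadjusted p under 0.05 and 0 higher by DESeq2. With total-count scaling 2 were higher and 11 lower, beside 4576 and 2568 of all 15309 genes tested. HSPE1, the mitochondrial cochaperonin, fell from 80.6 ± 1.71 to 58.1 ± 3.88 CPM and the ubiquitin gene UBB from 742 ± 6.82 to 584 ± 22.6, and CCT3 and CCT4 of the cytosolic chaperonin fell by 0.31 and 0.30. With MYC 15 of the 20 were higher and 2 lower. CCT7 of the cytosolic chaperonin went from 289 ± 3.46 to 561 ± 3.87 CPM.

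**Figure D5:**
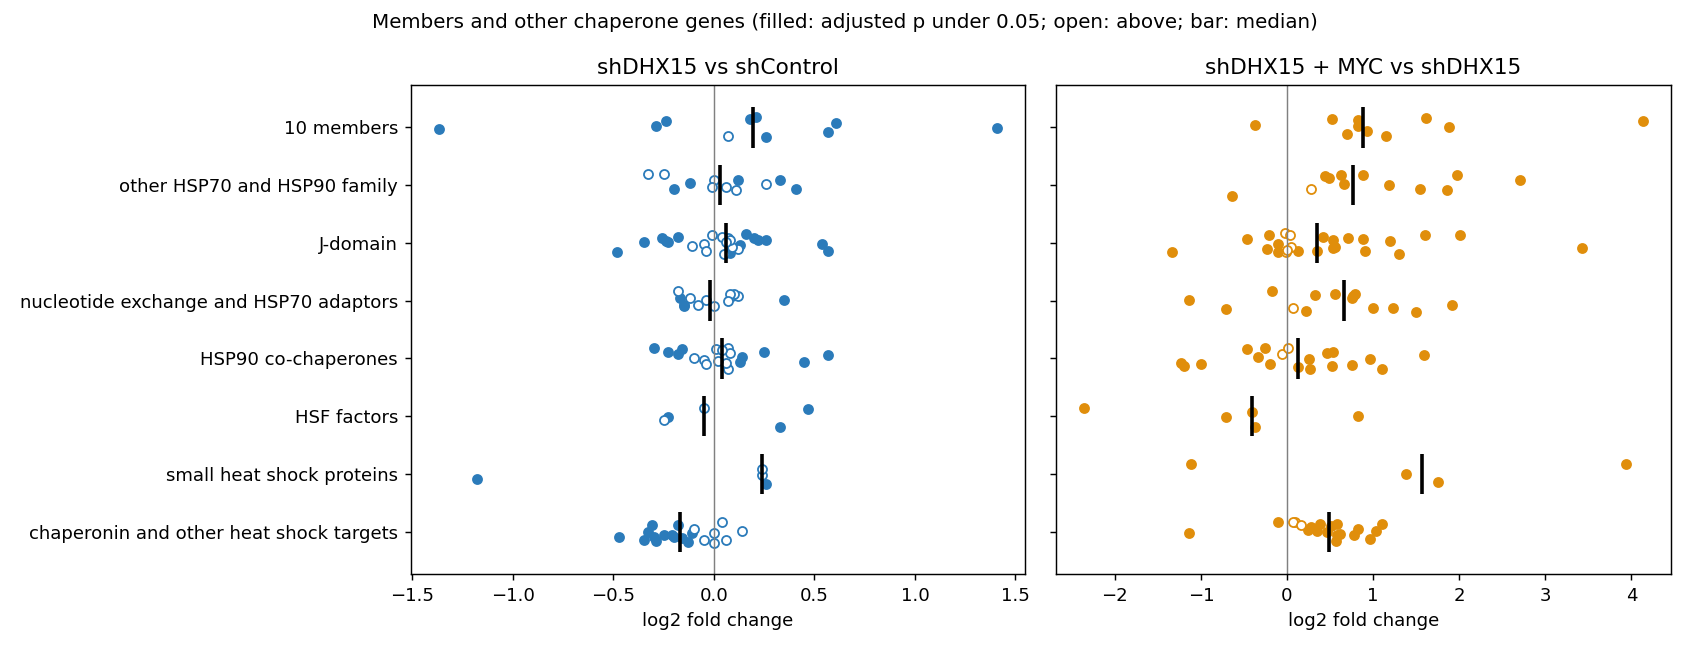
Log2 fold changes of the 10 members and of 7 groups of other chaperone genes in shDHX15 against shControl (left) and shDHX15_MYC against shDHX15 (right), filled where the edgeR adjusted p was under 0.05, with the median of each group as a bar; the horizontal scales differ. In the knockdown the members reach from -1.37 to 1.41 with a median of 0.20, and the medians of the other groups lie between -0.17 (chaperonin and other targets) and 0.24 (small heat shock proteins); with MYC the HSF factors have a median of -0.41 and the members of 0.88.

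Genes with a pattern like that of a member were found by the distance between log2 CPM values over the 9 libraries, each centred on the gene's mean, among 9669 genes. Nearest to HSPA8 was EEF1G, a translation elongation factor subunit, at 1309, 506.5 and 778 CPM in the 3 groups (distance 0.13), but 93.8% of its windows also occur in the genes AP002990.1 and AC008038.1. It was followed by DYNLRB1, a dynein light chain, at 108, 47.4 and 68 CPM (0.31), GLTP (0.405), LIMA1 (0.47) and CCDC92 (0.529). Nearest to HSPH1 was the J-domain gene DNAJC2 (0.0628), followed by WDR3, which acts in assembly of the small ribosomal subunit, at 22.7, 26.7 and 82.1 CPM (0.12), FAM208B (0.201), NSRP1 (0.211) and NAA15 (0.217). The likeness is a description of these libraries, which fall into 3 groups.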

How the data were processed

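The authors deposited whole-number read counts per gene for 9 libraries. Per the submitters' processing notes, FastQC 0.11.9, HISAT2 2.2.1, DESeq2 1.32.0 and hg38 were used. For the counting program, its use of strand and its annotation, nothing is given in the sources used here. Columns named for a GFP hairpin were taken as shControl, those named for hairpin 1 as shDHX15 and those named for MYC with hairpin 1 as shDHX15_MYC.

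Genes passing filterByExpr (15309 of 17637) were fitted in edgeR 4.0.16 (R 4.3.3) with TMM factors and a quasi-likelihood model of 3 group means; p-values are 2-sided and adjusted by Benjamini and Hochberg over these genes. Standard errors were derived from the F statistic. A count of 3 corresponded to 0.0503 to 0.0712 CPM. Lengths and shared sequence (100-base windows every 50 bases) came from GENCODE v29 (GRCh38), and promoters from RefSeq (GRCh38.p14). Shares were compared by exact permutation tests (scipy 1.17.1).

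The members and lists were chosen with earlier results of these data known. The genes named were all members, DHX15, MYC, HSF1 and HSF2, genes among the 4 with the smallest adjusted p of those called in a role group and comparison, and the 5 nearest to HSPA8 and to HSPH1 with mean log2 CPM at or above 3, without clone and uncharacterised names. Alternatives were DESeq2 1.42.0, other scaling, filters and lengths, a replicate block and leaving out each library. The share of HSPA1A in its pair, and the shares of the inducible genes, were chosen after seeing the data. Separate cultures are not stated for the replicates, so p-values measure the spread between these libraries. The fitting step was tested on simulated counts. Some genes that the naming rule allows are not reported here.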

Additional observations from a re-analysis of the deposited data

How the results depend on the processing

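Of 453 values of the 10 members under 16 other settings of the fit, 452 kept their direction and their side of the threshold and 0 reversed. The exception was HSPA4 in the knockdown, which was called with total-count scaling (0.14). Of 2024 values of the other named genes, 1996 did the same, 12 were no longer called, 13 became called and 3 reversed. With total-count scaling, 34 genes of the chaperone list were higher in the knockdown in place of 20, beside 4576 of all genes in place of 3362. Under it 3 fold changes turned from below 0 to above 0. These were UBB with MYC over shDHX15 (0.10), and DNAJC9 (0.06, not called, edgeR adjusted p = 0.0579) and HSBP1 (0.22) with MYC over shControl. The cause was not tested beyond the shift in the median of all genes.

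The HSP70 pool in shDHX15_MYC against shControl turned from a log2 ratio of 0.34 to -0.03 with the longest transcript or undivided counts under TMM factors. Scaled by total counts, it was 0.60 with exon lengths and 0.24 with undivided counts. The HSP90 pool in the knockdown turned from -0.09 to 0.03 with total counts not divided by length. These settings were chosen after seeing the data. Shares depended on the length used, in level and not in the order of groups. With counts not divided by length, HSPA8 made up 90.8%, 71.5% and 58.4% of the HSP70 pool in shControl, shDHX15 and shDHX15_MYC. HSP90AA1 made up 45.3%, 52.6% and 56.3% of HSP90. With the longest transcript the shares were 90.9%, 71.8% and 58.5%, and 38.7%, 45.8% and 49.5%. The members' share of counts was 0.443%, 0.332% and 0.789% without mitochondrially encoded genes, and 0.743% in shDHX15_MYC without MYC.

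The replicate numbers did not pair the libraries: same-numbered deviations correlated at -0.0917 to 0.0979, and the own number correlated best in 8 of 18 cases. With the replicate block, 3296 genes were higher and 3452 lower in the knockdown, 6403 and 6501 with MYC over shDHX15 and 6385 and 6466 with MYC over shControl, and the counts of members were the same. Adding pseudogene counts to the members was not run, since no row of the table used here bore such a name.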
